A study of Zea mays with 18 samples.

Results

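PG14 (GRMZM2G418644), PG2C (GRMZM2G160526), ExoPG (GRMZM2G394259) and C5 (GRMZM2G125356) are 4 maize genes of pectin breakdown, chosen by gene ID from the 39475 gene IDs counted. Their levels were followed in all 18 libraries of isolated cells from untreated wild-type plants of the inbred line B73. Polyadenylated RNA was sequenced from 6 groups of 3 libraries, namely sperm cells, egg cells, zygotes taken at 12 h or 24 h from pollination, and both daughter cells, apical and basal, of the first zygotic division. Each library pooled hand-dissected cells: for sperm 1000, for egg 20, for 12 h zygotes 14 to 15, for 24 h zygotes 16 to 17, for apical cells 16 and for basal cells 13 to 14. No treatment or genotype separated the groups. The rule that chose the genes also set apical replicate 1 apart from apical replicates 2 and 3. The genes were chosen with earlier results of these data known. The difference of apical replicate 1 from the other apical libraries is therefore described here without a test. Whether replicates were taken from separate plants is not stated in the labels. The p-values then measure the spread among these libraries alone, and that spread may be technical.

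Pectin is a gel-forming polysaccharide of plant cell walls, and its main chain, homogalacturonan, is a polymer of galacturonic acid that is laid down with many of its acid groups methylated. Pectin methylesterases remove those methyl groups, and polygalacturonases then hydrolyse the unmethylated chain, the exo-acting kind from its end. Grass pollen carries much of both enzymes, and in the pollen grain the vegetative cell, which grows the pollen tube, is their known source, while the sperm cells travel inside that tube. PG14, PG2C and ExoPG are named as polygalacturonases. C5, which the reference also lists as pme1, is the pectin methylesterase of the set. No pollen or vegetative cell library was analysed here, so the word pollen rests on that background and not on a measurement.

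The reference gene table places PG2C, ExoPG and PG14 on the same chromosome, in that order, with 4 genes between PG2C and ExoPG and 3 between ExoPG and PG14. C5 lies on another chromosome. The table gives PG14 the further names PG2, PG3, PG6, PGg14 and pgl1, and gives ExoPG the names Pectinase, PG and PG9. Several polygalacturonase genes of maize are near-identical in sequence, and how reads that match several genes were counted is not given in the sources used here. The division of counts between PG14, PG2C and ExoPG is therefore uncertain. Sequences of the 4 genes were not used here.

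Depth ran from 11128444 to 25771168 counts per library, and apical replicate 1 was the deepest. Levels are given as TMM-normalised CPM, counts scaled to a common library size in which library sizes are also corrected for differences in RNA composition. The scaling factors were low in sperm, at 0.454 to 0.502, and 0.974 in apical replicate 1. CPM are not corrected for gene length, so levels are compared between cells for 1 gene and not between genes. In such bulk libraries, fewer cells of a type and less RNA per cell cannot be told apart. The sperm marker hap2, a gene of gamete fusion, reached 586 to 923 CPM in sperm and at most 8.62 CPM in the 15 other libraries. Of the egg markers es1, es2, es4 and ea1, all 4 reached 1 CPM in each egg library, but 3 did so in each sperm library too. Their sum ran from 604 to 4835 CPM in the egg libraries and from 31.6 to 35.8 CPM in sperm.

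All 4 genes were highest in sperm. PG14 stood at 494, 334 and 341 CPM in sperm replicates 1, 2 and 3, a mean of 389.7 ± 90.5 CPM (SD, n = 3). ExoPG stood at 232, 150.2 and 178 CPM, a mean of 187 ± 41.5 CPM (SD, n = 3). For both polygalacturonases sperm replicate 1 was the highest, and every sperm library was above every library of the 5 other groups. PG2C stood at 91.5, 68.0 and 75.6 CPM, a mean of 78.4 ± 12.0 CPM (SD, n = 3). C5, the methylesterase, stood at 81.4, 69.5 and 78.2 CPM, a mean of 76.4 ± 6.21 CPM (SD, n = 3). For these genes too, no library of another group came within the sperm range. The share of all genes with such a gap was not counted.

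**Figure D1:**
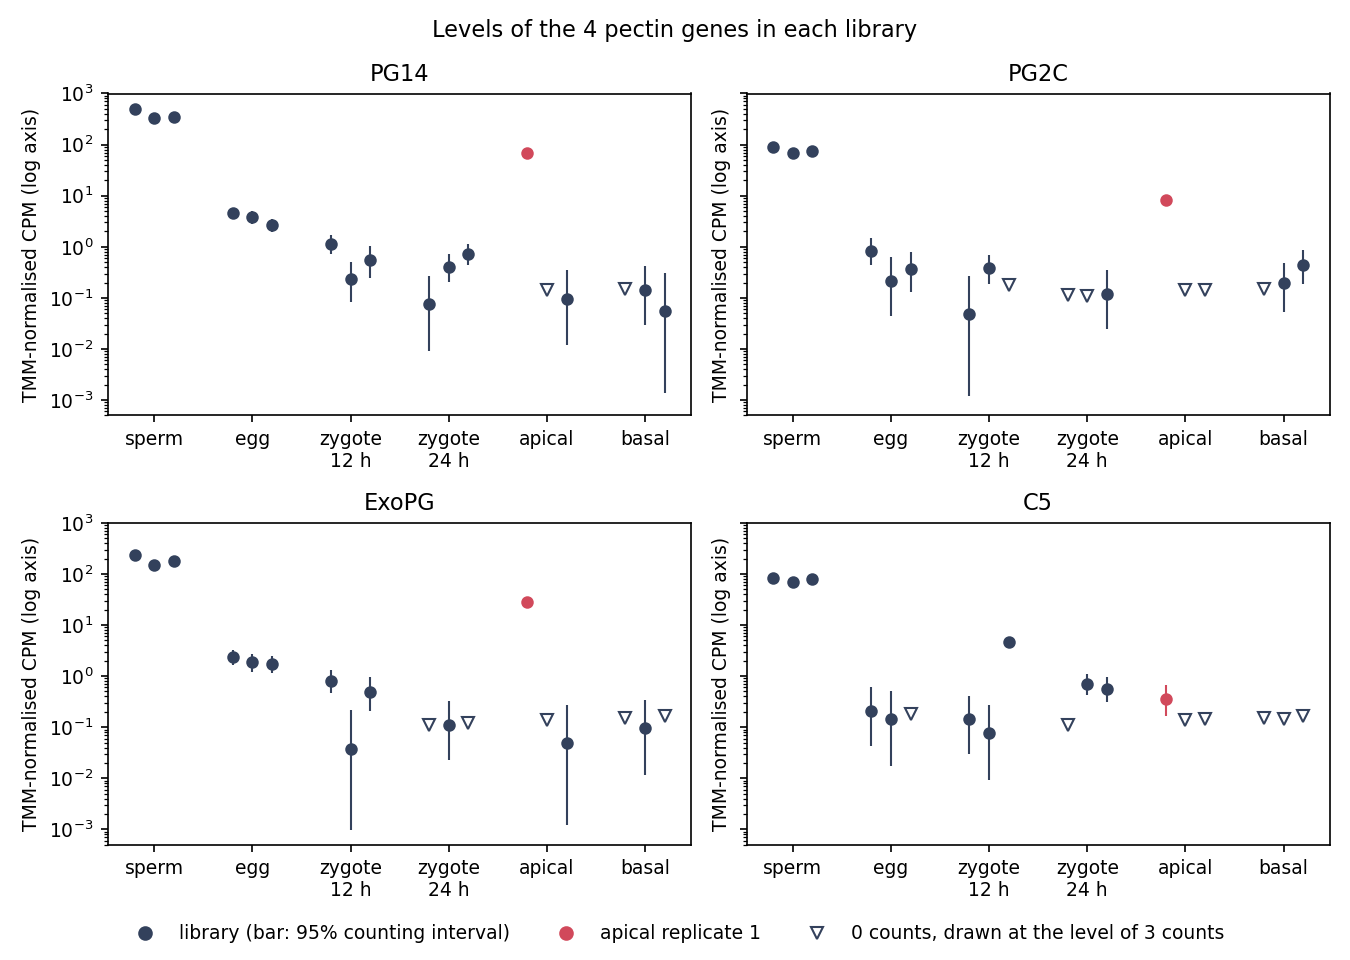
TMM-normalised CPM of PG14, PG2C, ExoPG and C5 in each of the 18 libraries (log axis), with exact 95% counting intervals as bars and libraries with 0 counts drawn as open triangles at the level of 3 counts. The sperm libraries lie highest in all 4 panels, apical replicate 1 (red) lies between sperm and the rest for the 3 polygalacturonases, and 12 h zygote replicate 3 stands out for C5.

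Eggs held traces of the polygalacturonases. PG14 was at 4.52, 3.76 and 2.66 CPM in the 3 egg libraries, with 65, 52 and 44 counts. ExoPG was at 2.36, 1.88 and 1.75 CPM. These egg values were close to each other and lay above every 12 h and 24 h zygote and basal library. PG2C was at 0.835, 0.217 and 0.363 CPM in eggs, a range that overlaps that of 12 h zygotes. C5 had 3, 2 and 0 counts in eggs, at most 0.209 CPM.

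The comparison of sperm with egg asks in which gamete library a transcript had the higher level. Counts were compared with edgeR's quasi-likelihood test and Benjamini-Hochberg adjustment over all tested genes, and an adjusted p under 0.05 counts as a call. All 4 genes were called higher in sperm than in egg, where 24.7% of the 24835 genes tested were called higher in sperm. The log2 fold change of C5 was 9.26 ± 1.85 (SE; adjusted p = 0.000468, edgeR). PG2C had 7.32 ± 1.77 (adjusted p = 0.00173, edgeR), PG14 had 6.69 ± 1.67 (adjusted p = 0.00220, edgeR) and ExoPG had 6.50 ± 1.63 (adjusted p = 0.00228, edgeR). On the level scale, sperm exceeded egg 106-fold for PG14 (counting interval 90.3 to 124) and 677-fold for C5 (290 to 2088). These intervals use the counts summed over each group and leave out the spread between its libraries. The median log2 fold change of the 4 was 7.01, beside −0.80 over all genes tested. With library size as the only scaling the median over all genes moved to −1.80, the fold changes of the 4 ran from 5.45 to 8.21, and all 4 calls held.

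The comparison of sperm with the 12 h zygote sets levels in sperm beside levels after fertilisation. CPM are relative to all RNA of a library, so it cannot say how much sperm RNA remained in the zygote. All 4 genes were again called higher in sperm, where 26% of genes tested were called higher in sperm. PG14 had a log2 fold change of 9.21 ± 1.89 (adjusted p = 0.000384, edgeR), PG2C 8.86 ± 1.91 (adjusted p = 0.000591, edgeR) and ExoPG 8.69 ± 1.82 (adjusted p = 0.000463, edgeR). C5 had the smallest, 5.53 ± 1.49 (adjusted p = 0.00395, edgeR), and 1 library decided its size. Without 12 h zygote replicate 3 the C5 value was 9.34 (adjusted p = 0.000277, edgeR). PG2C likewise went to 11.2 without 12 h zygote replicate 2, which gave 10 of its 11 counts at 12 h. The median of the 4 was 8.78, beside −1.60 over all genes tested and −3.15 with library size as the only scaling, under which the C5 value was 3.94.

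In zygotes the polygalacturonases were near the limit of detection. PG14 was at 1.14, 0.229 and 0.546 CPM in the 12 h libraries and at 0.0745, 0.405 and 0.727 CPM in the 24 h libraries. ExoPG was at 0.805, 0.0382 and 0.485 CPM at 12 h, and at 24 h it had 3 counts in replicate 2 and 0 in the other libraries. PG2C had 1, 10 and 0 counts at 12 h and 0, 0 and 3 counts at 24 h. The 12 h and 24 h ranges overlapped for each of the 3 genes.

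C5 stood apart in zygotes mainly through 12 h zygote replicate 3. It had 3, 2 and 77 counts at 12 h, which is 0.142, 0.0765 and 4.67 CPM. At 24 h it had 0, 19 and 14 counts, or 0, 0.699 and 0.565 CPM. The value of 12 h zygote replicate 3 was the highest of C5 outside sperm, while PG14, PG2C and ExoPG had 9, 0 and 8 counts in that library. The 12 h zygotes held 82 C5 counts in all, of which this library gave 77.

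None of the 4 genes was called between 12 h zygote and egg, where 37.4% of the 23806 genes tested were called in either direction. PG14 had a log2 fold change of −2.48 ± 1.72 (adjusted p = 0.273, edgeR) and ExoPG −2.14 ± 1.79 (adjusted p = 0.366, edgeR). The egg and 12 h libraries did not overlap for either gene, but the share of all genes without overlap was not counted. By counting alone the 12 h level was 0.170 of the egg level for PG14 (interval 0.117 to 0.242) and 0.205 for ExoPG (0.127 to 0.3204). C5 had 3.77 ± 2.05 (adjusted p = 0.167, edgeR) in the other direction and −0.07 (adjusted p = 0.991, edgeR) without 12 h zygote replicate 3. PG2C had −1.58 ± 1.98 (adjusted p = 0.557, edgeR) and −3.90 without 12 h zygote replicate 2, again not called. None of the 4 was called between 24 h and 12 h zygotes either, where 1.04% of genes tested were called, and their adjusted p ran from 0.623 to 0.942 (edgeR). The median of the 4 was −1.86 in the first of these comparisons and −1.87 in the second, beside 0.06 and −0.05 over all genes tested.

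The 3 polygalacturonases were present in apical replicate 1 and nearly absent from the other apical libraries. PG14 had 1723 counts in apical replicate 1, 0 in replicate 2 and 2 in replicate 3, or 68.6, 0 and 0.0970 CPM. ExoPG had 703, 0 and 1 counts, or 28.0, 0 and 0.0485 CPM. PG2C had 210, 0 and 0 counts, with 8.37 CPM in replicate 1. Apical replicate 1 thus gave all but 3 of the counts of the 3 polygalacturonases in apical cells, at levels between those of egg and of sperm. C5 had 9, 0 and 0 counts, with 0.359 CPM in replicate 1, below its level in 12 h zygote replicate 3 and in the 24 h zygote replicates 2 and 3. Against the other apical libraries together, apical replicate 1 was higher 1436-fold for PG14 (counting interval 397 to 11868) and 1172-fold for ExoPG (210 to 46354). It was at least 117-fold higher for PG2C and at least 5.00-fold higher for C5, taking 3 counts over those 2 libraries as the floor.

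Basal cells, the sisters of apical cells, held 0 to 8 counts per gene and library. PG14 had 0, 3 and 1 counts, PG2C 0, 4 and 8, ExoPG 0, 2 and 0, and C5 0 in all 3 libraries. Basal replicate 1, which shares its number with apical replicate 1, had 0 counts of all 4 genes. The labels do not say whether the number marks sister cells. For C5, 0 counts in basal cells put sperm at least 1488-fold higher when 3 counts in the whole group are taken as the floor.

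Relative to the sperm mean, apical replicate 1 held 17.6% of the PG14 level (counting interval 16.8 to 18.5), 15.0% of the ExoPG level (13.9 to 16.2) and 10.7% of the PG2C level (9.28 to 12.2). It held 0.470% of the C5 level (0.215 to 0.891). These intervals cover counting error in apical replicate 1 only and take the sperm mean as fixed. The genes were not tested against each other. With library size as the only scaling the 4 values were 36.0, 30.7, 21.8 and 0.954%, and with RLE scaling, the median-ratio factors of DESeq2, they were 14.5, 12.4, 8.82 and 0.388%, in the same order.

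**Figure D2:**
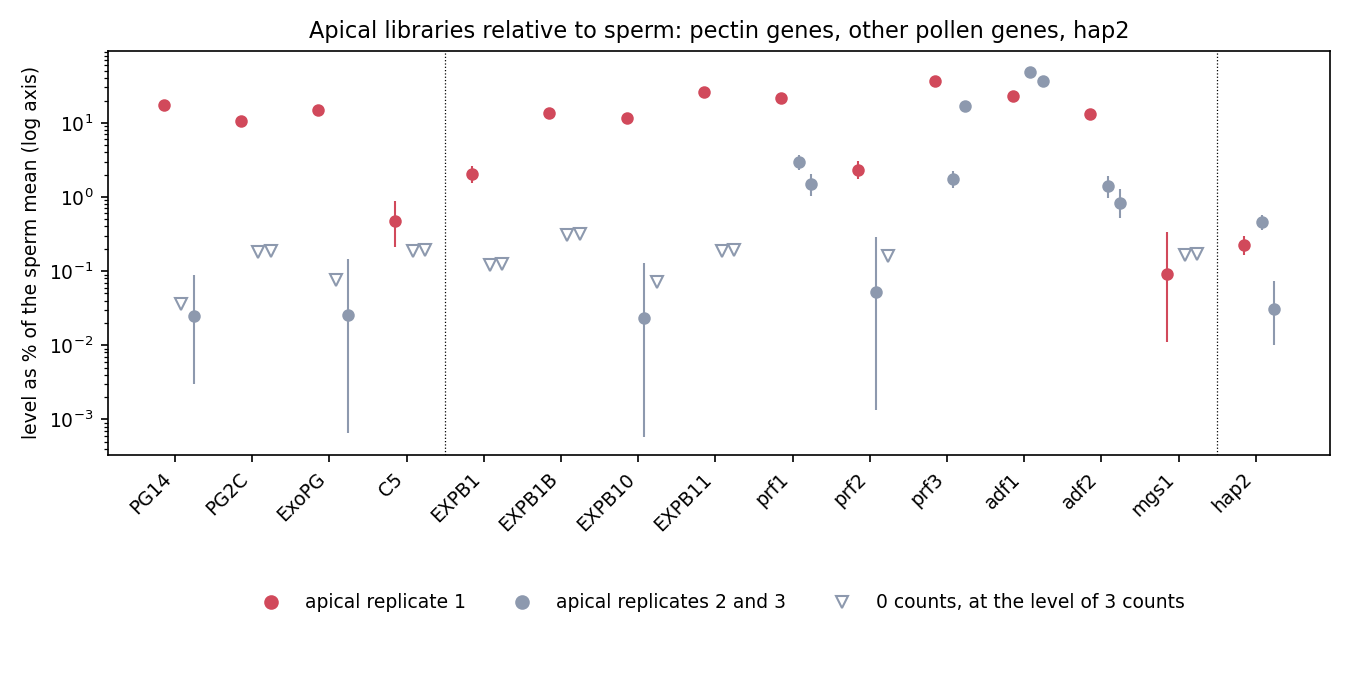
Level in each apical library as a percentage of the sperm mean of the same gene (log axis), for the 4 pectin genes, 10 other pollen genes and the sperm marker hap2, with exact 95% counting intervals. In apical replicate 1 (red) PG14, PG2C and ExoPG lie at 10.7 to 17.6%, beside 0.470% for C5, 0.0926% for mgs1 and 0.225% for hap2.

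Other pollen genes were high in apical replicate 1 as well, though not all of them. The list held the beta-expansins EXPB1, EXPB1B, EXPB10 and EXPB11, which loosen grass cell walls, the actin-binding genes prf1, prf2, prf3, adf1 and adf2, and mgs1, which is known from male gametophytes. Of its 10 genes, 9 reached 1 CPM in apical replicate 1, against 4 and 3 in replicates 2 and 3 and 2 to 4 in the basal libraries. Their summed level was 167 CPM in apical replicate 1, 31.5 and 48.3 CPM in the other apical libraries, 13.1 to 30.6 CPM in basal cells and 1005 to 1173 CPM in sperm. It was 243 to 341 CPM in 12 h zygotes, above apical replicate 1, and 89.98 to 107 CPM in 24 h zygotes, and in both groups adf1 gave most of it. EXPB11 had 506, 0 and 0 counts in the 3 apical libraries, and apical replicate 1 held 26.3% of its sperm mean. EXPB10, at 204 ± 20.4 CPM in sperm (SD, n = 3), had 588, 1 and 0 counts in apical cells, 11.5% of its sperm mean in replicate 1. The expansins EXPB1B and EXPB1 stood at 13.6% and 2.02% there, the profilin gene prf2 at 2.35%, and mgs1 had 2 counts, or 0.0926%. The profilin gene prf3 was at 62.6, 2.92 and 28.0 CPM in apical replicates 1, 2 and 3. The actin-depolymerising gene adf1 went the other way, at 11.2, 23.6 and 17.6 CPM, lowest in replicate 1. The part of pollen-derived RNA in these values was not tested.

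The summed markers of other cells were close to each other in the 3 apical libraries, apart from hap2, which was low throughout. The sperm marker hap2 was at 1.75 CPM there, within the 0.242 to 3.54 CPM of apical replicates 2 and 3, while sperm held 586 to 923 CPM. The egg markers summed to 430.3 CPM, between the 346 and 489 CPM of the other apical libraries, and ea1, a gene first known from the egg apparatus, made up 405 CPM of it. The 10 markers of endosperm and maternal seed tissue summed to 266 CPM, beside 231 and 234 CPM, nearly all from the polycomb gene mez1, with 8, 7 and 8 of the 10 at 0 counts.

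Across the genome, 498 genes had at least 10 CPM in every sperm library and under 1 CPM in apical replicates 2 and 3 and all basal libraries. Of these, 100 (20.1%) reached 1 CPM in apical replicate 1 and 181 had 0 counts there, and the median stood at 0.404% of the sperm level. From the highest percentage down, PG14 ranked 17, ExoPG 23, PG2C 38 and C5 239 of the 498. Among the 93 such genes with at least 100 CPM in sperm, 29 (31.2%) reached 1 CPM in apical replicate 1, PG14 ranked 4 and ExoPG 8. Among the 498 genes that passed these limits, C5 was thus near the middle and the polygalacturonases near the top.

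The make-up of the counts also set C5 apart in sperm, egg and apical replicate 1. Of the counts of the 4 genes summed, C5 gave 9.06, 11.2 and 11.6% in the sperm libraries and 0.340% in apical replicate 1, with 9 of 2645 counts (exact interval 0.156 to 0.645). In eggs C5 gave 1.81%, with 5 of 276 counts (0.591 to 4.18), also below each sperm library. In zygotes the C5 share was above that of each sperm library when libraries were pooled, at 51.9% of 158 counts at 12 h (43.8 to 59.9) and 47.1% of 70 counts at 24 h (35.1 to 59.4), where the polygalacturonases held 37 counts and C5 33. Within the 12 h zygotes the share was 81.9% in replicate 3, with 77 of 94 counts (72.6 to 89.1), and 6.67% in replicate 1, with 3 of 45 counts (1.40 to 18.3). Within the 24 h zygotes C5 gave 57.6% in replicate 2, with 19 of 33 counts (39.2 to 74.5), and 14 of 35 counts in replicate 3, where PG14 gave 18, and replicate 1 had 2 counts in all. These are shares of counts, not of molecules, since gene lengths differ.

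**Figure D3:**
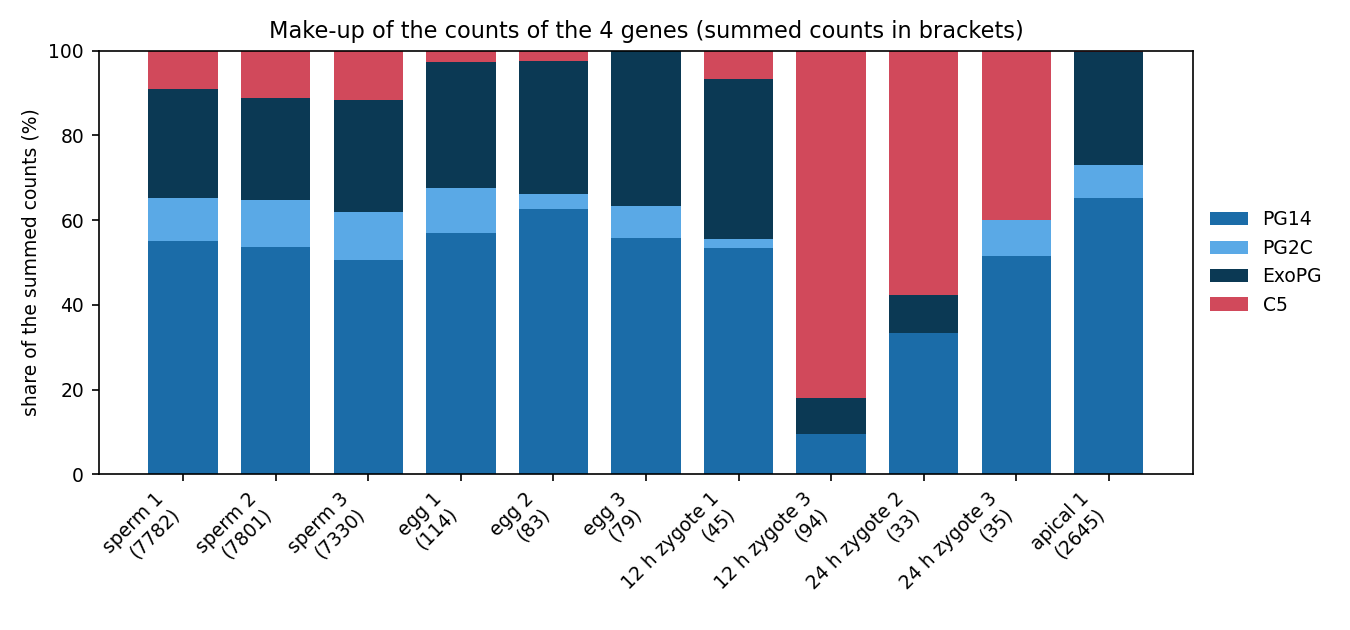
Share of PG14, PG2C, ExoPG and C5 in their summed counts (percent), for the 11 libraries with at least 20 such counts, whose totals are in brackets. C5 takes 9.06 to 11.6% in sperm, 0.340% in apical replicate 1 and 81.9% in 12 h zygote replicate 3.

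Among the 3 polygalacturonases, PG14 gave the largest share of counts in sperm, egg and apical replicate 1 and PG2C the smallest. In the sperm libraries PG14 gave 60.4, 60.5 and 57.4% of their counts, ExoPG 28.4, 27.2 and 29.9%, and PG2C 11.2, 12.3 and 12.7%. In eggs the shares were 59.4% (exact interval 53.3 to 65.3), 32.8% (27.3 to 38.8) and 7.75% (4.86 to 11.6), on 271 counts. In apical replicate 1 they were 65.4% (63.5 to 67.2), 26.7% (24.99 to 28.4) and 7.97% (6.96 to 9.07), on 2636 counts. The PG2C share in apical replicate 1 was below that of every sperm library and the PG14 share above, and in both cases the counting intervals do not overlap. For PG14 the interval of sperm replicate 3 (56.1 to 58.6) also lay apart from those of sperm replicates 1 (59.3 to 61.6) and 2 (59.3 to 61.7). Counting intervals leave out the spread between libraries, so they do not set apical replicate 1 apart from that spread. In zygotes, on few counts, PG14, ExoPG and PG2C gave 51.3, 34.2 and 14.5% of 76 counts at 12 h, where replicate 2 alone gave 10 of the 11 PG2C counts, and 83.8, 8.11 and 8.11% of 37 counts at 24 h. Basal cells had 4, 2 and 12 counts of PG14, ExoPG and PG2C, the only group in which PG2C had the most counts, on 18 counts in all.

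In the fits of all genes, the apical comparisons of these genes rest on that 1 library. Between apical cells and 24 h zygotes, PG14 (log2 fold change 5.76 ± 1.97, adjusted p = 0.0447, edgeR) and ExoPG (7.70 ± 2.34, adjusted p = 0.0279, edgeR) were called higher, where 13% of genes tested were called higher in apical cells. PG2C had 5.90 ± 2.34 (adjusted p = 0.0768, edgeR) and C5 −1.78 ± 1.88 (adjusted p = 0.514, edgeR). Without apical replicate 1 none was called, where 4069 of 25111 genes tested were called, 2195 higher and 1874 lower. All 4 values were then below 0: −2.97 for PG14 (adjusted p = 0.178, edgeR), −2.94 for PG2C (0.421), −0.58 for ExoPG (0.860) and −6.17 for C5 (0.180). The median of the 4 was 5.83 with apical replicate 1 and −2.95 without it, beside −0.13 and −0.17 over all genes tested. With all apical libraries kept, the call of PG14 was also lost with library size as the only scaling (adjusted p = 0.0568, edgeR) and without a filter on low counts (0.0794), and both calls were lost when any 24 h zygote library was left out.

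The expansins EXPB11, EXPB1B and EXPB10 followed the same course in this comparison. Of the 10 listed pollen genes, 9 were tested. EXPB11 (8.43 ± 2.59, adjusted p = 0.0326, edgeR), EXPB1B (8.43 ± 2.76, adjusted p = 0.0421, edgeR) and EXPB10 (6.73 ± 2.25, adjusted p = 0.0450, edgeR) were called higher in apical cells. Without apical replicate 1, 0 of these 9 were called higher, beside 2195 of the 25111 genes tested in that fit. The gene adf1 was called lower with it (−2.03 ± 0.40, adjusted p = 0.00320, edgeR) and without it (−1.80 ± 0.43, adjusted p = 0.0149, edgeR), and prf1 was called lower only in the fit without it (−2.29, adjusted p = 0.0317, edgeR). The egg markers es1, es2 and es4 were called lower in apical cells in both fits, where 11.8% of genes tested were called lower with all libraries kept, with −8.92, −4.41 and −5.23 in that fit.

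**Figure D4:**
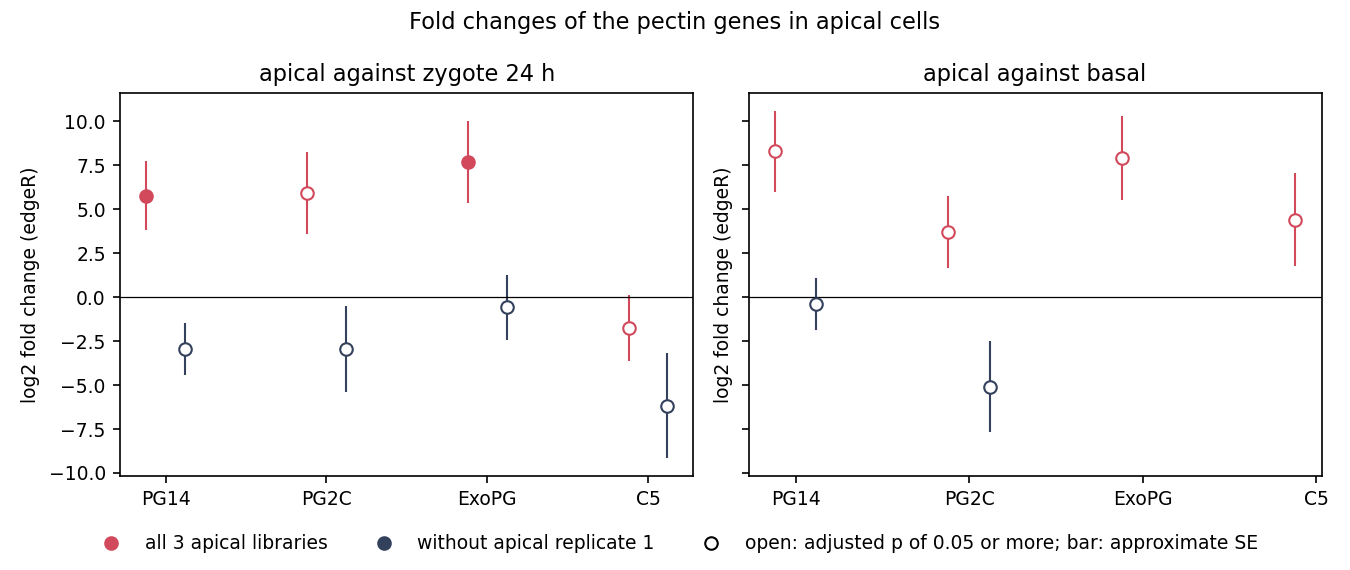
Fitted log2 fold changes of the 4 genes in apical cells against 24 h zygotes (left) and basal cells (right), with all 3 apical libraries (red) and without apical replicate 1 (dark), bars giving approximate SE and filled points an adjusted p under 0.05 (edgeR). Against 24 h zygotes PG14 goes from 5.76 to −2.97 and ExoPG from 7.70 to −0.58. ExoPG and C5 without apical replicate 1 are left out on the right, where each group had at most 2 counts.

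Between apical and basal cells none of the 4 was called, nor was any other of the 23806 genes tested (0% called by edgeR), while 1267 genes had an unadjusted p under 0.05 and DESeq2 called 80. PG14 had a log2 fold change of 8.29 ± 2.30 (adjusted p = 0.783, edgeR), ExoPG 7.89 ± 2.40 (adjusted p = 0.847, edgeR), C5 4.40 ± 2.66 (adjusted p = 0.977, edgeR) and PG2C 3.71 ± 2.06 (adjusted p = 0.964, edgeR). Without apical replicate 1, apical and basal cells had 2 and 4 counts of PG14, 0 and 12 of PG2C, 1 and 2 of ExoPG, and 0 and 0 of C5. Between basal cells and 24 h zygotes, where 18% of genes tested were called, none of the 4 was called. C5 had the largest value, −6.18 ± 2.67 (adjusted p = 0.125, edgeR), with 0 counts in basal cells against 33 at 24 h. The median of the 4 was 6.15 in the apical to basal comparison and −1.36 in the basal to 24 h comparison, beside 0.03 and −0.20 over all genes tested.

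Outside sperm, 1 CPM was reached in 11 of the 60 pairs of a gene and a library. PG14 reached it in 5 of the 15 libraries, namely the 3 egg libraries, 12 h zygote replicate 1 and apical replicate 1. ExoPG reached it in 4, the egg libraries and apical replicate 1. PG2C reached it in apical replicate 1 alone and C5 in 12 h zygote replicate 3 alone. At the other end, PG14 had 0 counts in 2 of the 15 libraries, ExoPG in 5, PG2C in 6 and C5 in 7.

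Likeness between genes was measured as Pearson's r of log2(CPM + 1) over the libraries, given as a description without p because sperm forms a separate cluster. Over the 14 libraries without sperm and apical replicate 1, r was 0.966 between PG14 and ExoPG, 0.589 between PG14 and PG2C and 0.561 between PG2C and ExoPG. C5 stood at 0.0449 with PG14, 0.0514 with ExoPG and −0.239 with PG2C. By rank the order was another: Spearman's rho was 0.627 between C5 and PG14, 0.444 between C5 and ExoPG and 0.0195 between C5 and PG2C. It was 0.853 between PG14 and ExoPG, 0.486 between PG14 and PG2C and 0.360 between PG2C and ExoPG. C5 was highest in 12 h zygote replicate 3 among these libraries. By rank C5 was least like PG2C, and its values with PG14 and ExoPG lay within the range of the polygalacturonases among themselves. These libraries share their scaling, and most values are below 1 CPM.

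Over all 18 libraries, the 10 genes most like the mean of the 4 had r of 0.992 to 0.996 among 15029 genes with at least 10 CPM in at least 3 libraries. They were GRMZM2G144898, GRMZM2G020852, GRMZM2G007708, GRMZM2G144856, GRMZM2G110025, GRMZM2G153262, GRMZM5G841015, EXPB10, GRMZM2G071327 and GRMZM2G478920, and all but EXPB10 had no name in the reference table. Each was at 2.39 to 23.4 CPM in apical replicate 1 and at most 0.0970 CPM in the other apical libraries. Apical replicate 1 was among the libraries that chose these genes, so this follows from the choice, and 5 of the 10 remained when it was left out. The gene most like PG14 was LIM4 (GRMZM2G024887, r = 0.996), by its symbol a LIM-domain gene, with 139.7 ± 31.0 CPM in sperm (SD, n = 3) and 21.0 CPM in apical replicate 1. The gene most like ExoPG was GRMZM2G454608 (r = 0.998), with 33.2 CPM there, and that most like PG2C was GRMZM2G153262 (r = 0.997), with 3.94 CPM.

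The genes most like C5 were others. GRMZM2G129133 (r = 0.997), GRMZM2G436448, GRMZM2G010468, GRMZM2G428413 and GRMZM2G156620 had r of 0.983 to 0.997 and stood at 10.96 to 111 CPM in sperm. All 5 had 0 counts in apical replicate 1, while their highest zygote value ran from 0.606 to 5.52 CPM, and these libraries too were part of the choice. With 3 of 18 libraries high in sperm, r is close to 1 for many sperm genes, and the order within these lists rests on small differences in the other libraries.

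**Figure D5:**
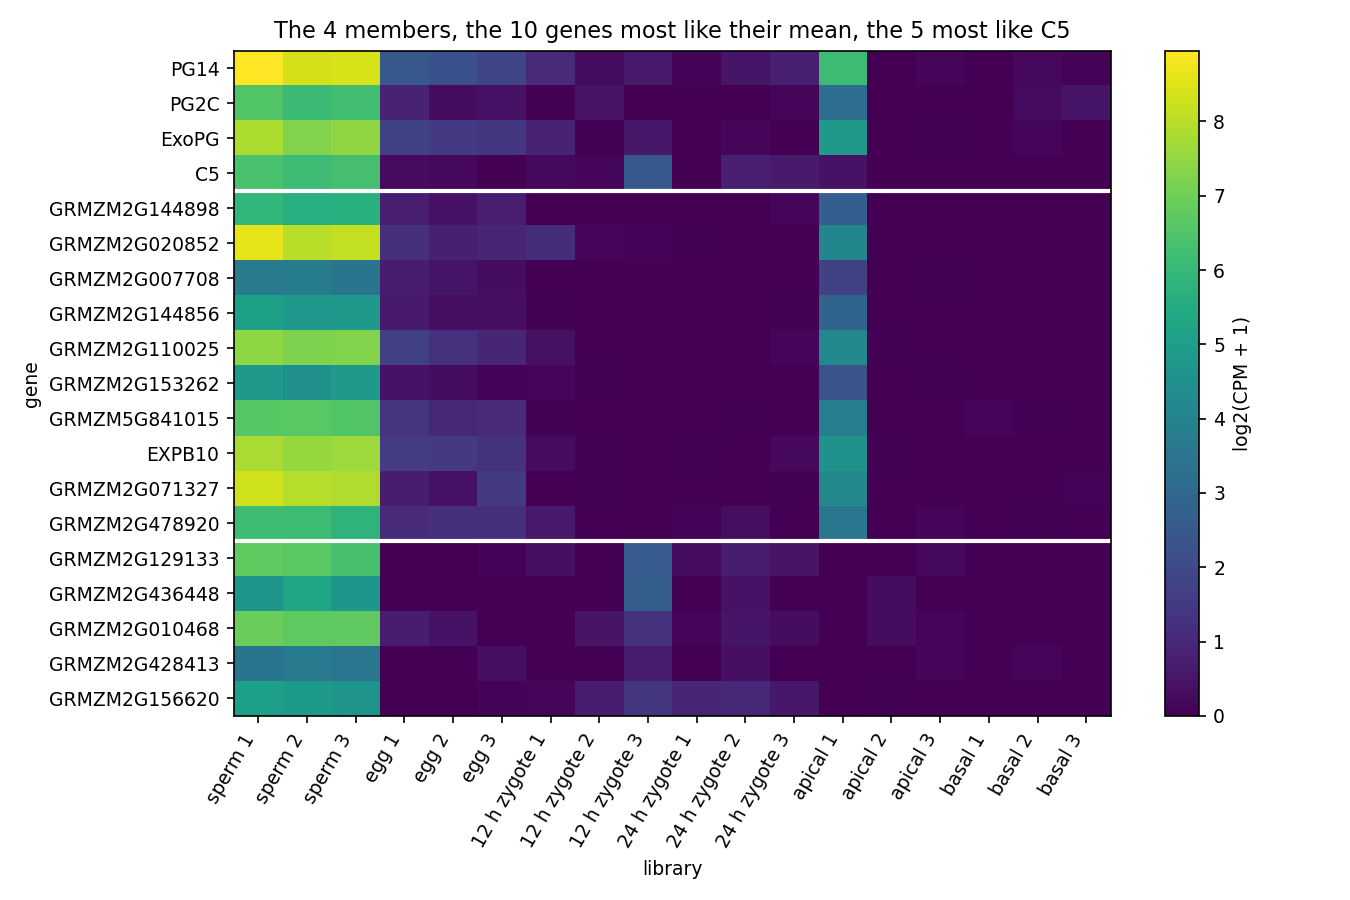
Heat map of log2(CPM + 1) in the 18 libraries for the 4 members (top), the 10 genes most like their mean (middle) and the 5 genes most like C5 (bottom). The 10 genes in the middle are at 2.39 to 23.4 CPM in apical replicate 1 and the 5 at the bottom are at 0 there.

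Members aside, only GRMZM2G064374 was high in sperm among the nearest chromosomal neighbours that matched a counted gene ID. GRMZM2G061545 and GRMZM2G134306, which lie before PG2C, had 0 counts in sperm. GRMZM2G153666, which the reference places between PG2C and ExoPG, had 0 counts in sperm, egg and apical cells. GRMZM2G125350, the gene just before C5, had 0 counts in sperm and egg and stood at 70.3 ± 10.3 CPM in basal and 8.87 ± 3.04 CPM in apical cells (SD, n = 3). GRMZM2G425920, the gene just after C5, had 1 count in sperm and stood at 1.17 ± 0.416 CPM in egg (SD, n = 3). GRMZM2G064374 lies 8 reference genes beyond PG14 and is the nearest on that side that matched a counted gene ID. It reached 59.9 ± 2.03 CPM in sperm, with 12.2 ± 10.6 CPM in egg (SD, n = 3), and had 0 counts in all apical libraries, replicate 1 included.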

How the data were processed

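The deposited values are raw, unnormalised read counts for each gene ID in 18 libraries, which were made with 15 cycles of cDNA amplification, per the labels' protocols. The submitters' processing notes list the build B73 RefGen_v3 and the tools STAR 2.5.2a, featureCounts, DESeq2, Trimmomatic 0.32, cutadapt 1.13 and FastQC. Overlapping genes are uncertain, because the strand setting is not given in the sources used here. The table held 39475 gene IDs, 0 rows without a gene and 0 unused sample columns. Names and neighbours came from a RefSeq gene table (assembly Zm-B73-REFERENCE-NAM-5.0). It matched 18908 IDs, 18387 of them to exactly 1 gene. Its coordinates are of another build and are not printed. It gives no descriptions, so planned lists of other pectin genes, matched on words, found 0 genes. The lists reported were matched by symbol, apart from the seed marker gz16, matched by a word.

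The members and gene lists were chosen with earlier results of these data known. Tests used edgeR 4.0.16 under R 4.3.3 (TMM, filterByExpr, robust quasi-likelihood fit, Benjamini-Hochberg adjusted p under 0.05). The sperm comparisons used all 18 libraries and the 5 others the 15 libraries that are not sperm, and all groups of a fit gave a common estimate of the spread. The SE is approximate, the absolute log2 fold change over the square root of F. On simulated counts the test returned fold changes close to those put in, but called only part of the changed genes. Intervals are exact 95% Poisson or Clopper-Pearson intervals. Reads without molecular identifiers are not independent molecules, so intervals and floors of 3 counts cover counting error only. No pair of replicates differed by as little as sampling noise. Named genes are the 4 members, the genes most like them (10 for their mean, 5 for each member), and of each marker list the highest member in sperm, egg and apical replicate 1 and those called in apical cells. Other listed pollen genes and neighbours were named after their values were seen. Alternatives were 3 other scalings, no filter, the replicate number as a block, other libraries in the fit, DESeq2 1.42.0 and each library left out in turn. The apical replicate 1 percentages under other scalings and the limit of 100 CPM for sperm genes were added after seeing the data.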

Additional observations from a re-analysis of the deposited data

How the results depend on the processing

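All 4 calls of both sperm comparisons held under every alternative run. None of the 4 genes was called in the 4 comparisons where the report has no call, under any alternative. The 2 calls between apical cells and 24 h zygotes became 1 with library size only and 1 without a filter on low counts, and 0 with only the 2 groups fitted, where 1 of the 4 genes passed the filter. With all 18 libraries in that fit they became 3, PG2C included. DESeq2 gave no adjusted p for them. Leaving out single libraries gave 0 to 2 calls. Leave-one-out log2 fold changes of that comparison ran from −2.97 to 6.49 for PG14, −2.94 to 8.82 for PG2C and −0.58 to 10.6 for ExoPG, the lowest without apical replicate 1. Between apical and basal cells they ran from −0.41 to 9.43 for PG14, −5.09 to 4.73 for PG2C and −0.36 to 10.5 for ExoPG, again lowest without that library. C5 ran from −0.069 to 4.47 between 12 h zygote and egg and from −2.50 to 1.90 between 24 h and 12 h zygotes, where PG14 ran from −1.38 to 0.066 and PG2C from −4.72 to 0.52. ExoPG ran from −2.89 to 2.67 between basal cells and 24 h zygotes. Values of groups with 0 counts depend on the prior count of the fit.

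With the replicate number as a block, 0 of the 4 genes were called between apical cells and 24 h zygotes. The block changed no other count of the 4. Same-numbered apical and basal libraries deviated together at r = 0.387, 0.463 and −0.0643, so the numbers were not taken to pair libraries, and not every library correlated best with its own number.

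Pairs of gene and library reaching the detection limit rose from 11 to 17 at 0.5 CPM. Of the 10 genes most like the 4, 1 remained with Spearman's rho, 4 with a pseudocount of 0.1, 5 without apical replicate 1 and 0 over the 15 libraries without sperm. Over all genes, calls between 24 h and 12 h zygotes were 248, against 763 with DESeq2, 890 with only the 2 groups and as few as 127 with a library left out. Calls between 12 h zygote and egg were 8912, against 3785 with only the 2 groups. Calls between basal cells and 24 h zygotes were 4276, against 6479 with DESeq2, 8194 with only the 2 groups and 1690 to 2808 with a library left out. Calls between apical cells and 24 h zygotes were 5916, against 2713 to 4302 with a library left out. With library size only, the higher and lower calls between apical cells and 24 h zygotes went from 3101 and 2815 to 1825 and 4337, and between sperm and egg from 6123 and 9753 to 4202 and 12084. The splits went from 6454 and 11837 to 3823 and 15462 between sperm and 12 h zygote, from 4613 and 4299 to 6142 and 2174 between 12 h zygote and egg, and from 2335 and 1941 to 1497 and 3018 between basal cells and 24 h zygotes. At these depths 0 counts allow up to 0.182 CPM, the limit for PG2C in 12 h zygote replicate 3.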

Other observations

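Genes with at least 10 CPM in every sperm library and under 1 CPM in 14 of the 15 other libraries reached 1 CPM in the remaining library in 25 cases for apical replicate 1, 15 for egg replicate 3, 12 for egg replicate 2 and 10 for 12 h zygote replicate 3. Each of the other libraries had 0 to 8 such genes. In 24 h zygotes PG14 gave 83.8% of the counts of the 3 polygalacturonases (exact interval 68.0 to 93.8), above its 59.5% in sperm, on 37 counts. GRMZM2G094811, among the genes most like PG14 and among those most like ExoPG over 18 libraries, stood at 162 ± 7.59 CPM in sperm (SD, n = 3). It was at 28.9 CPM in apical replicate 1. GRMZM2G139513, among the genes most like PG14 alone, stood at 123 ± 8.18 and 17.3 CPM. GRMZM2G109973, among the 5 genes most like PG2C, stood at 21.9 ± 2.90 and 4.90 CPM.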
